A study of Mus musculus with 6 samples.

Results

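AP-1 transcription factors are the subject here, 8 genes chosen by symbol from the 24421 genes measured in sorted cortical astrocytes. They are Fos, Fosb, Fosl1, Fosl2, Jun, Junb, Jund and Atf3, and all 8 were found. The cells came from CD51-Flp mice injected after birth with an adeno-associated virus (AAV-GFAP-FSF-hM3D-mCherry). The GFAP promoter drives hM3D and mCherry there once Flp has acted. CD51 is integrin alpha V, and hM3D is an engineered receptor, coupled to Gq, whose ligand is clozapine-N-oxide (CNO). Of the 6 libraries, 3 came from mice given CNO and 3 from mice given saline, each 2 times per day from postnatal day 7 to 21. Cells with mCherry were sorted on day 21. Mice of both groups carried the Flp allele and the receptor, so no group received CNO without the receptor. The sources used here do not give the time between the last injection and the sort, the number of mice per library, or their sex or strain.

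AP-1 proteins bind DNA as pairs joined through a leucine zipper. Jun proteins can pair with one another or with Fos proteins, whereas Fos proteins need a Jun partner. Atf3 can pair with Jun proteins and on its own is known as a repressor. Several of these genes, Fos above all, are immediate early genes, whose short-lived transcripts appear soon after calcium or ERK signalling through elements that bind SRF and CREB. In the brain, Fos is widely used as a sign of recent activity, and the same genes are known to be induced when tissue is dissociated into single cells.

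Promoter sequence is shown for Jun, Atf3 and Fos, the 3 members with the highest levels per kilobase. Each is 300 bases, 250 before the transcription start and 50 after it, 5′ to 3′ on the gene's strand, from RefSeq on GRCm38.p6. Capitals mark matches to TGANTCA (the AP-1 site), TGACNTCA and TTACNTCA (which resemble the cAMP response element, CRE), TGACGT (the CRE core) or the CArG box, which SRF binds, each searched on both strands. The CRE core can overlap the CRE-like motifs.

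Fos, chr12:85473640-85473939, plus strand, Jun, chr4:95052173-95052472, minus strand, and Atf3, chr1:191183284-191183583, minus strand, read as follows.
Fos: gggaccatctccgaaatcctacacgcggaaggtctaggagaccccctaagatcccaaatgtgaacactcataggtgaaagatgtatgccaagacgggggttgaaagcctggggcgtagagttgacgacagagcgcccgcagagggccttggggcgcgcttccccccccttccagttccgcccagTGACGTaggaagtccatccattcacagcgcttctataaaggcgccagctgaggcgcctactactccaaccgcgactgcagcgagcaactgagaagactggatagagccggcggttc
Jun: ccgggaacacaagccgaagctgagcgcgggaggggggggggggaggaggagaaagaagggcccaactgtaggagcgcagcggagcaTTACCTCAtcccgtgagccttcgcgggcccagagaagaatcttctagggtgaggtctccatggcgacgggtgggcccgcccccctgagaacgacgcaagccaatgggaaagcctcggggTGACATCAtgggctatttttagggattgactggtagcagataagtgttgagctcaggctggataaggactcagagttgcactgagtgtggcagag
Atf3: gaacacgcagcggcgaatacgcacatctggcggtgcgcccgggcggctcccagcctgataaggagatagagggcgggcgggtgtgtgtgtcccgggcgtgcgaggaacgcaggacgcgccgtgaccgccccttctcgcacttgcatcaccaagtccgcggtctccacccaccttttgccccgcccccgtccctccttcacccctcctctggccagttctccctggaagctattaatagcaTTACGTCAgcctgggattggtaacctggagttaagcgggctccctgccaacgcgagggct

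Jun held TTACCTCA at position -164 and TGACATCA at -45, counted from the start of transcription to the first base of the match. Atf3 held TTACGTCA at -10, with the CRE core inside it on the other strand, and Fos held TGACGT at -66. Promoter windows were found for 7 of the 8 members. Those of Fosb, Fosl2, Junb and Jund had no match, and none of the 7 held TGANTCA or a CArG box. The RefSeq start behind the window of Jund lies upstream of the first start that GENCODE M21 annotates, and those of Fosl2 and Atf3 lie downstream of it. Of 32851 promoter windows of this length, 7.81% held TGANTCA, 8.83% TGACNTCA, 3.3% TTACNTCA, 7.51% TGACGT and 1.63% a CArG box. A match describes letters in this window and is not evidence of binding.

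Libraries differed in ways that bear on every value below. CNO 1 held 3908076 reads, and the other 5 held 12010901 to 19224186. Among genes with a mean of 100 to 300 normalized counts, 34.1% had no read in CNO 1, against 3.56% and 12.1% in CNO 2 and 3 and 0.687% to 1.22% in saline. Mbp, the myelin gene that passed the test together with Mobp, took 9.60% to 20.8% of reads in CNO and 4.58% to 6.30% in saline. Xist had 25.4, 21466 and 35033 normalized counts in CNO 1, 2 and 3 and 216, 35117 and 885 in saline 3, 4 and 5. Y-linked Ddx3y had 2417, 6.66 and 1.94 in CNO and 1452, 213 and 1955 in saline. Xist was high in CNO 2, CNO 3 and saline 4, and Ddx3y in CNO 1, saline 3 and saline 5, while saline 4 also held 213 of Ddx3y. All 12 astrocyte markers had reads in every library, but so did 11 or 12 of 12 microglia and macrophage markers, so transcripts of other cell types were present. Gfap had 4.23, 952 and 59.2 normalized counts in CNO and 1307, 374 and 507 in saline, and its value in CNO 1 was 1 read. It was the only 1 of the 12 astrocyte markers with a log2 fold change below 0 with the authors' size factors.

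Transcripts of Fos, Jun and Atf3 were abundant in both groups, and none of the 7 members with reads passed a test between CNO and saline. Fos, Jun and Atf3 averaged within 1.35-fold of their saline levels. The test covered 13028 genes whose mean reached 10 normalized counts, and 2 of them passed (limma on log2 of the normalized count plus 1, Benjamini-Hochberg adjusted p under 0.05), which is 0.0154%, against 0 of the 7 tested members. At an unadjusted p under 0.05, 1 member was lower in CNO, where 7.25% of all tested genes were, and 0 were higher, where 2.28% were. The groups overlapped for all 7, while 12.5% of tested genes were lower and 4.57% higher in CNO without overlap. DESeq2 on the recovered reads called 1.91% of tested genes and 0 of the 7 members, and edgeR called 0 members. In bulk RNA, fewer cells of a type and less RNA per cell cannot be told apart.

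**Figure D1:**
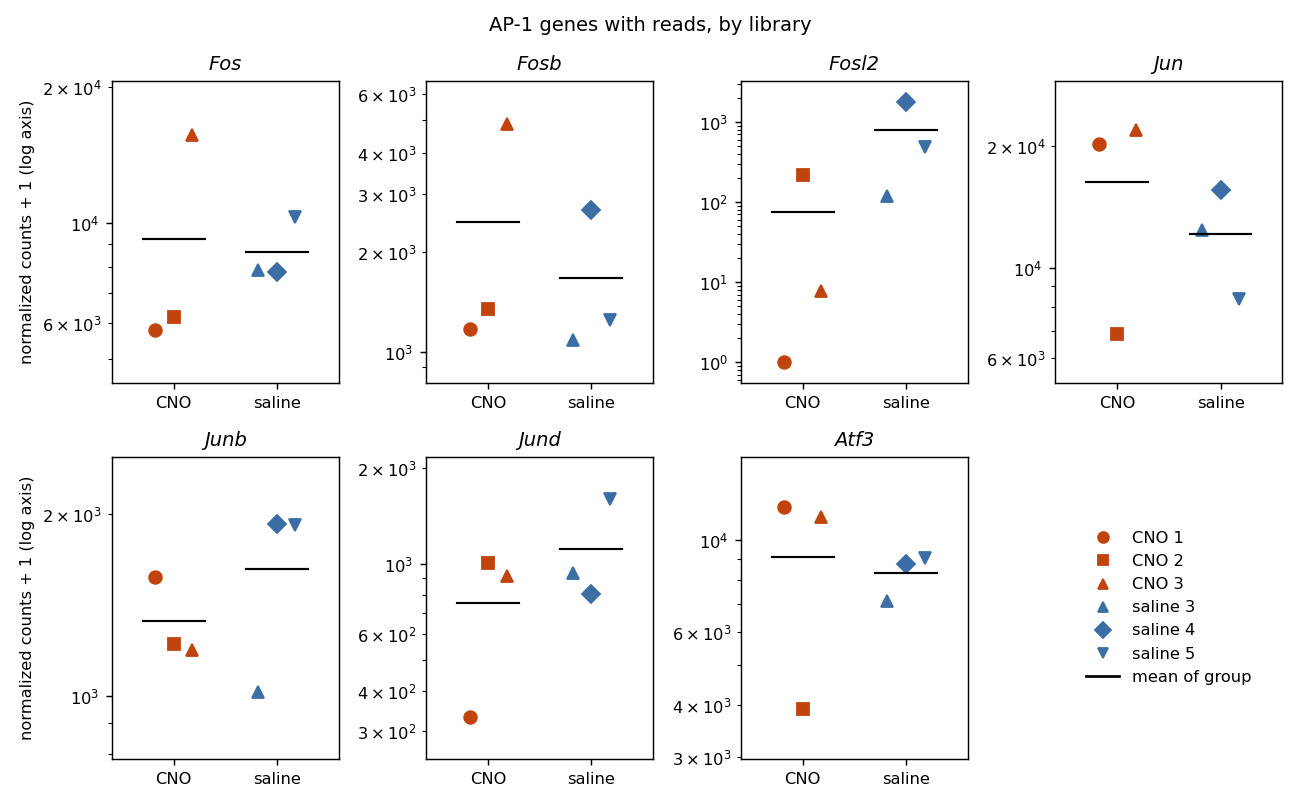
Normalized counts plus 1 (log axis) of the 7 AP-1 genes with reads, 1 point per library, CNO left of saline, with a line at each group mean. The groups overlap for every gene, and the spread of Fos and Atf3 is wider among the CNO libraries than among the saline libraries.

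Fos, the founding member whose protein joins Jun on AP-1 sites, stood at 5802, 6183 and 15687 normalized counts in CNO 1, 2 and 3, against 7851, 7791 and 10285 in saline 3, 4 and 5. CNO 3 was the highest of the 6 libraries and the other CNO libraries were the lowest. Its log2 fold change was -0.05 ± 0.43 (SE), with a 95% interval from -0.99 to 0.89 (limma adjusted p = 0.969). With library-total and quantile scaling it was -0.75 ± 0.41 and -0.78 ± 0.42. By number of reads, Fos ranked 419, 237 and 80 among all genes in CNO 1, 2 and 3, and 104, 97 and 76 in saline 3, 4 and 5.

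Fosb, a relative of Fos that accumulates in stable truncated form after repeated stimulation of neurons, had 1175, 1345 and 4877 normalized counts in CNO and 1086, 2687 and 1250.1 in saline. Its highest library was again CNO 3, and the next was saline 4. The log2 fold change was 0.36 ± 0.67 (95% interval -1.11 to 1.83, limma adjusted p = 0.845). The table gives 1 value per gene, so the full-length and truncated forms were not told apart.

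Fosl2, which encodes Fra-2, was the member with the widest spread. It had 0, 218 and 6.79 normalized counts in CNO and 118, 1777 and 491 in saline. These rested on 0, 294 and 7 reads in CNO and 209, 2220 and 976 in saline, and the 0 of CNO 1 allows up to 12.7 normalized counts (3 reads, counting error only). CNO 2 lay above saline 3, so the groups overlapped. The means were 74.8 ± 124 and 796 ± 870 (SD, n = 3 each). Its log2 fold change of -5.30 ± 2.12 had an unadjusted p of 0.0289 in limma but did not pass over all genes (adjusted p = 0.496), and it was -3.51 without CNO 1 and -4.34 without saline 4. Fosl1, which encodes Fra-1, had 0 reads in all 6 libraries, out of 88687263 in total. A count of 0 allows up to 1.51 to 12.7 normalized counts per library. Fosl1 was therefore not tested, and it shares exon bases with Ccdc85b on the other strand.

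Jun, the partner that most Fos pairs need, had 20259, 6866 and 21890.2 normalized counts in CNO and 12399, 15620.3 and 8398 in saline. CNO 1 and 3 were above all saline libraries, and CNO 2 was below all of them. The log2 fold change was 0.30 ± 0.46 (95% interval -0.70 to 1.30, limma adjusted p = 0.800).

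Junb, known to oppose Jun at some promoters, had 1572, 1219 and 1188 normalized counts in CNO and 1013, 1925 and 1913 in saline. The lowest value was in saline 3, and the CNO libraries stood closer together (highest over lowest 1.32) than the saline libraries (1.90). Its log2 fold change was -0.24 ± 0.56 (95% interval -1.46 to 0.99, limma adjusted p = 0.879). Junb overlaps Prdx2 on the other strand by 173 exon bases, and strand handling is not given in the sources used here. Larger overlaps on the other strand are annotated for Jun with Junos (689 exon bases) and Jund with Gm11175 (919), neither of which has a value here.

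Jund, the member usually expressed most steadily, had 329.6, 1003 and 916 normalized counts in CNO and 937, 801 and 1598 in saline. The low value of CNO 1 came from 78 reads. The log2 fold change was -0.66 ± 0.71 (95% interval -2.22 to 0.90, limma adjusted p = 0.731), and without CNO 1 it was -0.15.

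Atf3, a stress-induced factor, had 12023, 3916 and 11351 normalized counts in CNO and 7143, 8764 and 9074 in saline. Like Jun, it was highest in CNO 1 and 3 and lowest in CNO 2. The log2 fold change was -0.03 ± 0.45 (95% interval -1.02 to 0.96, limma adjusted p = 0.986). The ratio of the highest to the lowest library was 3.07 in CNO and 1.27 in saline for Atf3, and 2.70 and 1.32 for Fos.

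The direction of several of these small differences depended on the scaling. With reads scaled to the library total, of which Mbp takes more in CNO, all 7 log2 fold changes were below 0, from -5.84 for Fosl2 to -0.34 for Fosb, and Jun stood at -0.40. Quantile scaling also put all 7 below 0. Over all tested genes the median log2 fold change was -0.89 with the authors' size factors, -1.52 with library totals and -0.08 with quantile scaling. With the authors' size factors this median also varied with level. It was 0.33 among the 2132 genes with a mean of 1000 to 10000 normalized counts, where Fos, Fosb, Junb and Atf3 lie. Among the 6397 genes from 100 to 1000, where Fosl2 and Jund lie, it was -0.83. Among the 107 genes of at least 10000, where Jun lies, it was 0.60. The 7 members had a median of -0.05 with the authors' size factors, -0.75 with library totals and -0.76 with quantile scaling. Their median was thus above that of all tested genes with the authors' size factors and library totals, and below it with quantile scaling. Beside genes of their own level, with the authors' size factors, Fos, Junb, Atf3, Jun and Fosl2 lay below the median. Fosb and Jund lay above it.

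**Figure D2:**
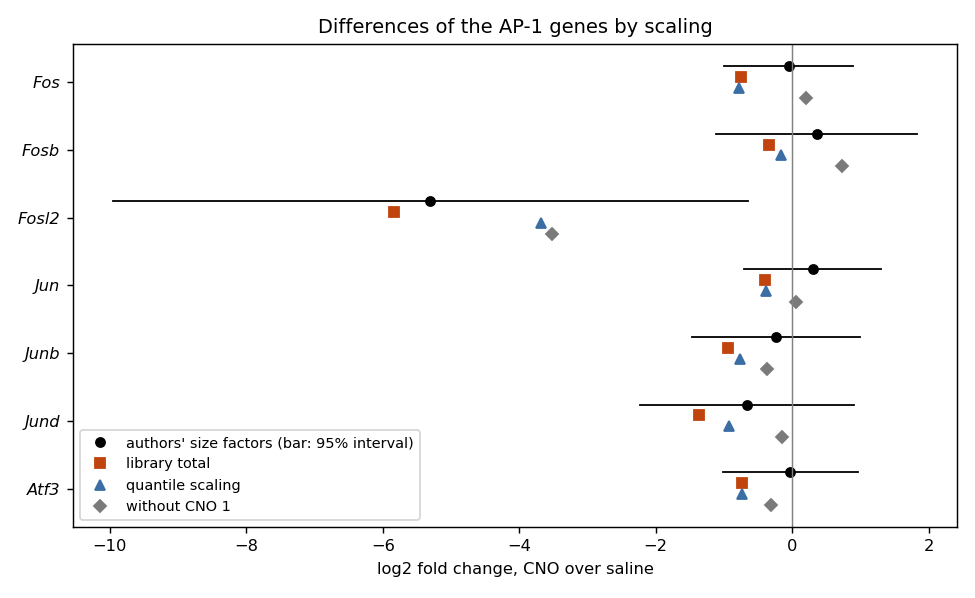
Log2 fold change of CNO over saline (horizontal axis) for the 7 tested AP-1 genes under the authors' size factors with a 95% interval, library-total scaling, quantile scaling, and without CNO 1. The interval of Fosl2 runs from -9.95 to -0.65 and those of the other 6 cross 0, and both other scalings put all 7 genes below 0.

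Levels of different genes were compared per kilobase of the longest annotated coding transcript. Jun led with 5123 ± 2585 normalized counts per kilobase in CNO and 3807 ± 1135 in saline (SD, n = 3 each). Atf3 had 4585 ± 2268 and 4197 ± 523, and Fos 4376 ± 2657 and 4099.97 ± 675. The ranges of these 3 over the libraries overlapped, and differences between genes within a library were not tested. Junb had 733 ± 118 in CNO and 894 ± 289 in saline, Jund 449 ± 219.6 and 667 ± 256, and Fosb 652 ± 553 and 443 ± 233, again with overlapping ranges. Fosl2 was the lowest member with reads, at 11.4 ± 18.9 and 122 ± 133. The order of the means over all libraries was the same when all annotated exons of each gene were used as its length.

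As shares of the summed AP-1 level per kilobase, Jun made up 24.7% to 38.4% in CNO and 18.2% to 31.5% in saline. Fos made up 16.6% to 33.6% in CNO and 23.8% to 33.6% in saline, and Atf3 22.6% to 36.6% and 28.4% to 31.5%. Fosb, Fosl2 and Fosl1 together with Fos gave 18.5% to 38.8% in CNO and 30.1% to 36.4% in saline. CNO 1 had the smallest share of Fos and the largest of Jun and Atf3.

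**Figure D3:**
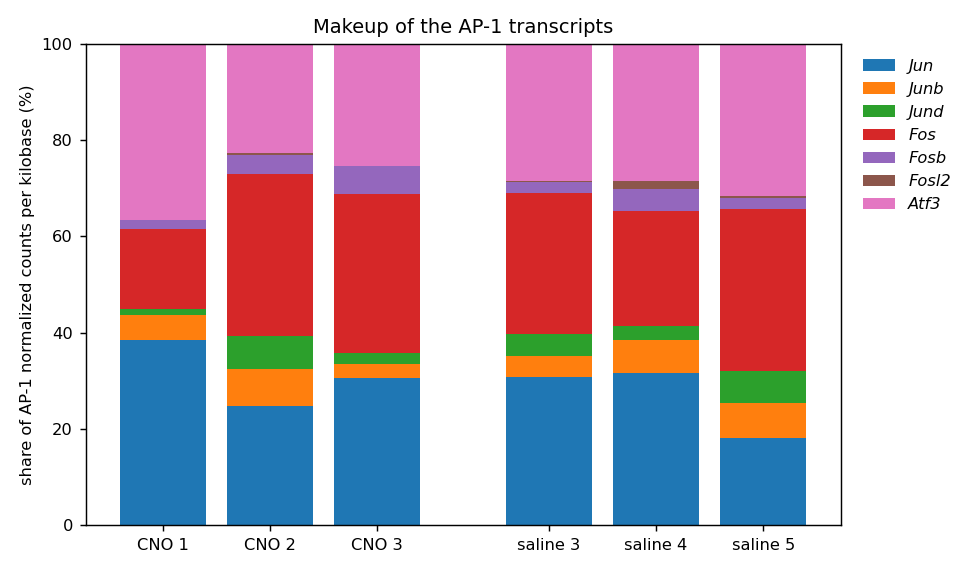
Share of each AP-1 gene in the summed AP-1 normalized counts per kilobase (vertical axis, percent) in each library, CNO left of saline. Jun, Fos and Atf3 fill most of every bar, and Fos is smallest in CNO 1 at 16.6%.

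Ratios of members within a library do not depend on its size factor, and 6 were compared. The log2 differences were taken on normalized counts plus 1, so where a count is at or near 0 they depend on that addition. With n = 3 each, 0.1 is the smallest possible p of the 2-sided exact permutation tests between CNO and saline. No ratio could therefore pass at 0.05, and the p-values below only describe the order of the libraries. Fosb over Fos was 0.202, 0.218 and 0.311 in CNO and 0.138, 0.345 and 0.122 in saline. Saline 4 gave the highest of these ratios and the other saline libraries the lowest. The log2 difference was 0.41 (exact permutation p = 0.5, adjusted p = 0.75). Junb over Jun was 0.0776, 0.177 and 0.0543 in CNO and 0.0817, 0.123 and 0.228 in saline, with a log2 difference of -0.54 (exact permutation p = 0.4). Fos over Jun was 0.286, 0.900 and 0.717 in CNO and 0.633, 0.499 and 1.22 in saline (log2 difference -0.36, exact permutation p = 0.7). For Jund over Jun the log2 difference was -0.96 (exact permutation p = 0.4), for Fosl2 over Fos -5.25 (exact permutation p = 0.2) and for Atf3 over Fos 0.02 (exact permutation p = 1). That of Fosl2 over Fos, with Fosl2 at 0 in CNO 1, was -5.61 with 0.5 added and -3.96 with 8 added. Adjusted over the 6 ratios, p ran from 0.75 to 1, and all 6 overlapped between groups.

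The 6 members with a read in every library did not share 1 pattern. Fosl2 and Fosl1 lacked reads in at least 1 library and were left out of this comparison. Likeness was measured as the root mean square difference between log2 levels, each centred on its own mean, so that 0 means the same pattern. Of these 6, Jun and Atf3 were the closest pair at 0.36. Fos and Fosb stood at 0.55, and Jun and Jund were the farthest apart at 1.18. For comparison, the median difference over 6800 genes, each read in all libraries with a mean of at least 100, was 1.19 from Jun and 1.13 from Fos. Ranked by closeness among these genes, Atf3 was number 67 from Jun and Jun number 99 from Atf3. Fosb was number 632 from Fos, and Fos number 212 from Fosb, so many unrelated genes lay closer.

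Outside the family, the genes closest to Atf3 were Lrch1 (0.12), Itgam (0.12) and Cep170 (0.15). Itgam encodes CD11b, a surface marker of microglia and macrophages, and had 8059, 2325 and 8111 normalized counts in CNO and 5214, 6343 and 6902 in saline. Closest to Fos were Vav3 (0.13), Serinc3 (0.17) and Lgmn (0.17), which encodes a lysosomal protease. Fosb lay closest to Slc40a1 (0.20), which encodes the iron exporter ferroportin, and then to Baz2b and Myo9a. The nearest genes were Eya4 (0.13), Gltscr2 and Herc1 for Jun, Npc2 (0.15), Glyr1 and Aagab for Junb, and Rsl1d1 (0.14), Trim37 and Mybbp1a for Jund. The nearest genes were picked from 6800 over 6 libraries, so their closeness is a description with no test.

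Summed over the family, AP-1 reached 41161, 20749 and 55916 normalized counts in CNO and 30547, 39366 and 33009.8 in saline. The 12 microglia and macrophage markers summed to 139819.7, 84289.6 and 214277 in CNO and 109346, 114816 and 136911 in saline. CNO 3 was highest and CNO 2 lowest for both sums. The AP-1 sum per unit of that marker sum was 0.294, 0.246 and 0.261 in CNO and 0.279, 0.343 and 0.241 in saline, with overlapping groups. Of these markers, Aif1 was at 0 in CNO 1 and none was at 0 in the other 5 libraries.

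The 12 astrocyte markers, none of them at 0, summed to 555247, 344616 and 169331 in CNO and 277189.9, 182899 and 200432 in saline, which is a different order of libraries. Per unit of the astrocyte sum, AP-1 ran from 0.0602 to 0.330 in CNO and from 0.110 to 0.215 in saline. The 10 oligodendrocyte markers took 11.1%, 24.5% and 18.8% of reads in CNO and 5.32%, 6.08% and 7.81% in saline, with Mag at 0 in CNO 1 and no other zero. Mbp alone took 9.60%, 20.8% and 16.4% in CNO and 4.58%, 5.17% and 6.30% in saline. Of the 10, 7 were higher in every CNO library, and Mag (-2.28), Cldn11 (-1.64) and Opalin (-0.38) had log2 fold changes below 0. AP-1 per unit of the summed normalized counts of the 10 was 0.0224, 0.00596 and 0.0179 in CNO and 0.0583, 0.0673 and 0.0441 in saline. Every CNO library was lower in this ratio, which divides by the markers that include Mbp and Mobp. The 30 genes known to be induced by tissue dissociation, counted without the AP-1 members, summed to 149548, 116495 and 223123 in CNO and 138782, 168282 and 163717 in saline. CNO 3 was again the highest library and CNO 2 the lowest with the authors' size factors. As shares of reads, these genes took 0.906%, 0.819% and 1.34% in CNO and 1.41%, 1.75% and 1.71% in saline, so every CNO library was lower. The part of microglia, macrophages, oligodendrocytes or dissociation in the AP-1 levels was not tested.

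**Figure D4:**
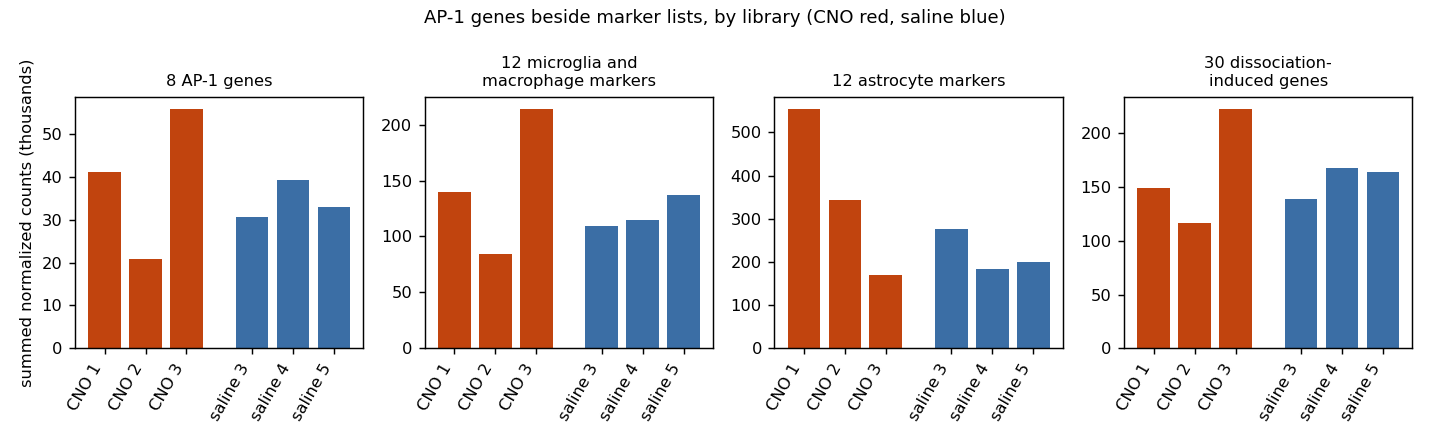
Summed normalized counts (vertical axes, divided by 1000, each panel with its own scale) of the 8 AP-1 genes, 12 microglia and macrophage markers, 12 astrocyte markers and 30 dissociation-induced genes in each library, CNO left of saline. AP-1, the microglia and macrophage markers and the dissociation-induced genes are highest in CNO 3 and lowest in CNO 2, while the astrocyte markers are highest in CNO 1 and lowest in CNO 3.

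Genes around the family showed no passing difference either. Across 8 lists of AP-1 partners, related factors, kinases, upstream factors, regulators of turnover, targets, other immediate early genes and dissociation-induced genes, 136 different genes were tested and 0 passed in limma, beside 0.0154% of all tested genes. The lists overlap in part. How a list's median compares with that of all tested genes depended on the scaling. With quantile scaling the medians of the 8 lists ran from -1.04 to -0.08, beside -0.08 over all tested genes. At an unadjusted limma p under 0.05, the counts below stand beside 7.25% of all tested genes lower and 2.28% higher in CNO, and counts without overlap beside 12.5% lower and 4.57% higher. DESeq2 called 2 of the 136, Maff and Plaur, as lower in CNO, beside 1.91% of all tested genes, and edgeR called 0.

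Among 13 tested AP-1 partners and related factors, 2 had an unadjusted limma p under 0.05 as lower and 1 as higher, beside 7.25% and 2.28% of all tested genes. Their median log2 fold change was -0.76, beside -0.89 over all tested genes, and without CNO 1 it was 0.03, beside -0.45. Maff, a small Maf protein that pairs with other bZIP factors, had 0, 2.22 and 0.970 normalized counts in CNO and 296, 181 and 64.9 in saline. These were 0, 3 and 1 reads in CNO, and every saline library was higher (limma adjusted p = 0.488, DESeq2 adjusted p = 0.00116). Bach2, a repressor that pairs with small Maf proteins, had 0, 69.5 and 0.970 in CNO and 344, 311 and 357 in saline (limma adjusted p = 0.488). Maf, a larger relative found in macrophages among other cells, had 30161, 25898 and 42868 in CNO and 18030.5, 21351 and 21015 in saline, with every CNO library above saline. Its log2 fold change of 0.68 ± 0.28 did not pass (limma adjusted p = 0.5002) and turned to the other sign with library-total and quantile scaling. Among the 12 microglia and macrophage markers, 2 were likewise higher in every CNO library. Mrc1 had 34450, 25625 and 55623 in CNO and 14867, 21632 and 16311 in saline, and Pf4 had 4336, 5036 and 5594 in CNO and 1446, 1165 and 2585 in saline (limma adjusted p = 0.488 for both). Trem2 was lower in every CNO library, at 355, 372 and 323 in CNO and 601, 953 and 1345 in saline (limma adjusted p = 0.558). Their part in the Maf level was not tested.

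The 12 tested ATF and CREB factors had a median of -0.80, beside -0.89 over all tested genes. Without CNO 1 their median was also -0.80, beside -0.45. Of these factors 9 lay below 0, beside 8893 of all 13028 tested genes. At an unadjusted limma p under 0.05, 1 was lower and 0 higher, beside 7.25% and 2.28%. Atf1 had a log2 fold change of -2.85 ± 1.33, Crem of -0.95 ± 1.08 and Cebpg of 0.75 ± 0.59. Of 20 kinases that act on AP-1 proteins, 15 lay below 0, beside 8893 of all 13028 tested genes. The kinases had a median of -0.52, and 1 was lower and 0 higher at that unadjusted p, beside 7.25% and 2.28% of all tested genes. Without overlap, 3 were lower and 1 higher, beside 12.5% and 4.57%. Mapk7, which encodes ERK5, had 4.23, 319 and 0.970 normalized counts in CNO and 485, 323 and 421 in saline, without overlap (limma adjusted p = 0.507). Map3k1, an upstream kinase of JNK, had 109.9, 392 and 799 in CNO and 1147, 891 and 1252 in saline (adjusted p = 0.550). Rps6ka2, a kinase downstream of ERK, had 0, 0 and 54.3 in CNO and 133, 20.01 and 209 in saline (adjusted p = 0.550). Without CNO 1 the kinase median was 0.10, beside -0.45 over all genes.

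Factors that drive Fos and Jun transcription had a median of -0.33 over 17 genes, with 2 lower and 1 higher at that unadjusted p, beside 7.25% and 2.28% of all tested genes. Ep300, an acetyltransferase and coactivator of CREB, had 7188, 5339.8 and 5338 normalized counts in CNO and 3721, 3287 and 2220.45 in saline, above all saline libraries, with a log2 fold change of 0.97 ± 0.41 (limma adjusted p = 0.512). Elk3, an SRF partner, had 0, 259.7 and 76.6 in CNO and 557, 393 and 823 in saline (adjusted p = 0.522). Mkl1, a coactivator of SRF, had 109.9, 26.6 and 0 in CNO and 81.1, 305 and 159 in saline (adjusted p = 0.598). The median of this list was 0.03 without CNO 1.

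Among 18 regulators of AP-1 protein or mRNA turnover, 8 lay below 0, beside 8893 of all 13028 tested genes. The median of this list was 0.01 (0.34 without CNO 1) and 0 had an unadjusted p under 0.05. Dusp1, a phosphatase that switches off JNK and p38, had 15323, 7892 and 7373 normalized counts in CNO and 5850.3, 7565 and 6767 in saline (log2 fold change 0.52 ± 0.38, limma adjusted p = 0.645). Zfp36l1, which promotes decay of AU-rich mRNAs, had 8253, 4501 and 6009 in CNO and 3386, 4198 and 4115 in saline, without overlap (adjusted p = 0.603). Rfwd2, a ubiquitin ligase of Jun, had a log2 fold change of 1.14 ± 0.66. The fold changes of Dusp1 and Zfp36l1 turned below 0 with library-total and quantile scaling.

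Of 28 genes known as AP-1 targets, 20 were tested, and 16 lay below 0, beside 8893 of all 13028 tested genes. At an unadjusted limma p under 0.05, 1 was lower and 0 higher, beside 7.25% and 2.28%. The median of the targets was -0.86, beside -0.89 over all tested genes, and without CNO 1 it was -0.82, beside -0.45. With library totals it was -1.56, beside -1.52, and with quantile scaling -0.83, beside -0.08. Among genes read in every library it was -0.53, beside -0.09. These differences were not tested. Plaur, the urokinase receptor, had 0, 2.22 and 0.970 normalized counts in CNO and 165, 638 and 90.6 in saline, from 0, 3 and 1 reads in CNO (limma adjusted p = 0.488, DESeq2 adjusted p = 9.33e-05). Hbegf, a growth factor of the EGF family, had 0, 281 and 0 in CNO and 230.2, 238 and 122 in saline. Gclc, which makes glutathione precursors, had a log2 fold change of -2.26 ± 1.495.

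Other immediate early genes, 24 of them tested, had 4 members lower at an unadjusted limma p under 0.05 and 6 lower without overlap, beside 7.25% and 12.5% of all tested genes, and 0 higher by either measure. Their median was -0.82, beside -0.89 over all tested genes, and -0.14 without CNO 1, beside -0.45. With quantile scaling it was -1.04, beside -0.08, and among genes read in every library -0.44, beside -0.09. Nr4a1, a nuclear receptor, had a log2 fold change of -1.95 ± 0.59 and Egr2, a zinc finger factor, of -2.23 ± 0.83 (limma adjusted p = 0.488 for both). Set against Fos in the same library, Nr4a1 stood at 0.0772, 0.0754 and 0.0455 in CNO and 0.260, 0.237 and 0.221 in saline. Egr2 over Fos was 0.0357, 0.0495 and 0.00717 in CNO and 0.0973, 0.133 and 0.0913 in saline. Of the 24 genes, 5 had a ratio to Fos below every saline library in all CNO libraries, where 11.1% of all other tested genes did. By the same measure 0 of the 24 were above, and the share above over all other tested genes was not computed. These ratios were chosen after the values were seen and were not tested.

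Among the 30 dissociation-induced genes, all tested, 0 had an unadjusted p under 0.05 in limma and 0 were without overlap. Their median was -0.35, and 0.13 without CNO 1. Dnaja1 had a log2 fold change of 0.66 ± 0.45 and Dnajb1 of -2.10 ± 1.48.

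**Figure D5:**
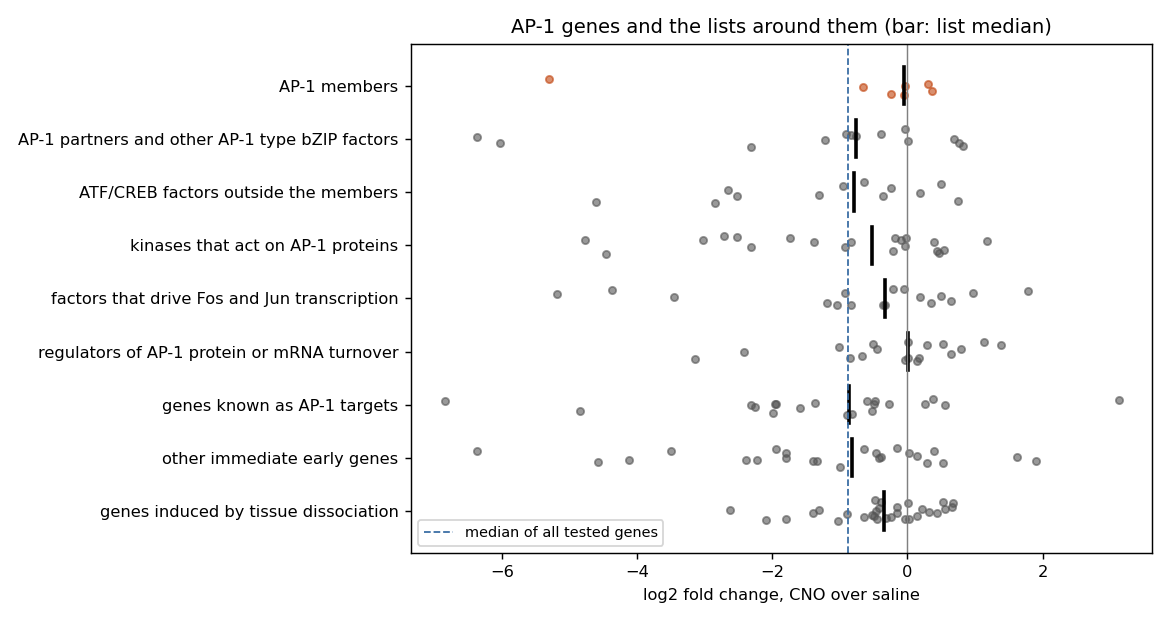
Log2 fold change of CNO over saline (horizontal axis) for each tested gene of the AP-1 family and of the 8 lists around it, with a bar at each list's median and a dashed line at the median of all tested genes, -0.89. No gene shown passed in limma, and the list medians run from -0.86 for AP-1 targets to 0.01 for regulators of turnover.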

How the data were processed

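RNA of sorted mouse cortical cells was sequenced in 6 libraries, from 10 ng of total RNA each per the labels' protocols. The deposited values are a signal: the authors divided each gene's read count by a size factor for its library. The submitters' processing notes name mm10 and STAR 2.5.0a, DESeq2 1.20.0, Trimmomatic 0.4, MultiQC 0.9 and FastQC 0.10.1. How reads were counted, with which annotation and strand setting, was not stated, so overlapping genes may share reads. All values (100%) were whole multiples of a library's smallest value (tolerance 1e-06 reads), which gave back whole reads. The table had 0 columns without a sample.

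Groups and replicate numbers come from the labels. Whether libraries are separate animals is not stated there, so p-values measure the spread between these libraries, which may be technical. The main test was limma 3.58.1 (R 4.3.3) on log2(normalized count + 1) with a variance trend, 2-sided, for 13028 genes with a mean of 10 or more, adjusted over all of them. A fold change is a difference of mean log2 values. Member ratios used exact permutation tests on log2 ratios of normalized counts plus 1. Alternatives were pseudocounts of 0.5 and 8, other filters and scalings, array weights, each library left out, limma-voom, and edgeR 4.0.16 and DESeq2 1.42.0 on the recovered reads. The fits were tested on simulated data. Lengths come from GENCODE M21 on GRCm38.

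The members were taken by symbol, and they and the lists were proposed with earlier results of these data known. Named were all members, up to 3 genes per list with the smallest p and a mean of at least 50, and the 3 genes nearest in pattern to each of the 6 members with a read in every library. For the dissociation-induced list, 1 gene that this rule names is not reported here.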

Additional observations from a re-analysis of the deposited data

How the results depend on the processing

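A filter that keeps only genes read in all libraries was added after the data were seen. No AP-1 member passed under any of the 18 alternatives, each library left out included (0 to 0). Adjusted p over these ran from 0.135 for Fosl2 to 1. Genes of the 8 lists gave 0 calls in every setting but DESeq2, which gave 2, and 0 to 0 with 1 library left out. Over all tested genes the count of 2 moved to 0 with a mean of at least 50, library-total scaling, quantile scaling, edgeR and the filter on genes read in all libraries. It moved to 11 with array weights, 16 with limma-voom and 249 with DESeq2, and to 0 with any 1 library left out (0 to 0).

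Signs of small fold changes moved. Fosb was -0.34 with library-total scaling and -0.17 with quantile scaling, and Jun -0.40, -0.39 and, with array weights, -0.028. With DESeq2, Fos was 0.10 and Atf3 0.13. With 1 library left out, log2 fold changes ran from -0.52 to 0.20 for Fos, -0.29 to 0.76 for Fosb, 0.004 to 0.84 for Jun, -0.31 to 0.50 for Atf3, -7.40 to -3.51 for Fosl2, -0.54 to -0.08 for Junb and -0.95 to -0.15 for Jund. The ratio differences ran from -0.51 to 0.34 for Atf3 over Fos, -0.69 to 0.14 for Fos over Jun, 0.13 to 0.88 for Fosb over Fos, -7.55 to -3.71 for Fosl2 over Fos, -1.02 to -0.14 for Junb over Jun and -1.79 to -0.21 for Jund over Jun. The cause was not tested. The intervals of the members, and the 78 reads of Jund and 0 reads of Fosl2 in CNO 1, limit what these libraries can show.

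No paired analysis was possible because the groups share only replicate number 3.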
